A study of Mus musculus with 5 samples.

Results

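A 350 kb deletion at a boundary of the Dppa2/4 domain was compared with the unedited wild-type line by 4C-seq, over all 5-kb windows of the deposited chromosome 16 profile. The windows were taken from the inbred table of the series, leaving out the gap around the bait and the 66 windows that stand at 0 in the deletion library, and 19885 of its 19951 windows were kept. Both libraries were then scaled to the same total. The series holds 5 samples, and this comparison uses 2 of them, with 1 library a side. No replicate error can therefore be given, and no difference below was tested.

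The wild type is 46C, a line of mouse embryonic stem cells grown in serum-containing GMEM with LIF, the cytokine that keeps such cells undifferentiated. The other library carries a deletion made with CRISPR, labelled as a boundary deletion of 350 kb. A library labelled as a 45 kb boundary deletion shares the same wild-type library and is given beside it. How many clones stand behind each library, and on how many alleles each deletion lies, is not given in the sources used here. Each library averages over a bulk of fixed cells, so contact in more cells and more frequent contact in the same cells cannot be told apart.

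4C-seq reads the genomic fragments that were ligated to 1 chosen viewpoint, the bait, and so records which parts of a chromosome lay close to it. Contacts of a bait usually fall with distance along the chromosome and fall more steeply at the boundaries of topological domains, stretches within which DNA meets DNA more often than across their ends. Dppa2 and Dppa4 encode chromatin proteins of pluripotent cells, and the domain around them is known for replicating early in embryonic stem cells and later once they differentiate. Removing a boundary is a way to ask whether the domain's contacts are held in by that boundary, and the series' title places the work in the control of DNA replication by elements in cis. In the RefSeq gene table of GRCm38.p6 the named coding genes around the domain run in the order Nectin3, Dppa4, Dppa2, Morc1, Trat1, the resistin-like genes Retnlb, Retnla and Retnlg, Dzip3, Cip2a, Myh15, Ift57 and Cd47. That table is of another build than the contact profile, so regions are given below by their mm9 position and genes were not placed on them.

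Both libraries were read from the same viewpoint, whose primers, as listed for each sample, are shown because they fix what every value below is a contact with. The capitals mark the 3′ bases of the forward primer that equal the first 4 bases of AAGCTT, the site cut by HindIII, the first enzyme of the protocol.
Forward primer: agcgtgaggtacatgaAAGC
Reverse primer: cctgaagagctggtaccaaa
The forward primer thus ends within the recognition site, as a primer that reads out from the HindIII end of a bait fragment does, while the reverse primer holds no such end.

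The deposited values are running means over 30 windows, or 150 kb. They could be turned back into whole reads per window, called own reads below. Wild type held 1714005 own reads, the 350 kb deletion 1465714 and the 45 kb deletion 1772088. Reads fell in 9134, 7914 and 8075 windows. Over the kept windows, 1639636, 1465714 and 1703339 reads remained, and all shares below are relative to these totals or to the matching totals of the deposited signal. RPM stands for own reads, and scaled signal for deposited signal, after the kept windows of each library were scaled to a sum of 1000000. Intervals are exact conditional binomial intervals at 95% on own reads and cover counting error only, because the protocol attaches no molecular identifier and PCR copies of a ligation product count as reads. The bait was taken to lie in the gap from 48555001 to 48655000 of chromosome 16 (mm9), and upstream means lower coordinates. Between the deletion and the gap and in the 0.5 Mb downstream, the window with the most wild-type reads, 23046, lay at 48410001 to 48415000. That is upstream of the gap, so the exact place of the bait is uncertain.

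The deletion itself was visible in the own reads, and the stretch without reads reached past the windows that stand at 0. Those windows run from 47900001 to 48230000, a length of 330 kb, shorter than the label. In wild type they held 74369 reads, 4.34% of the library. The next window on the far side, 47895001 to 47900000, had 856 reads in wild type, 0 in the 350 kb deletion and 1590 in the 45 kb deletion. On the side of the bait, the window at 48230001 to 48235000 had 6898 reads in wild type and 0 in the 350 kb deletion, where the wild-type share would give 6166. It had 526 reads in the 45 kb deletion. A count of 0 allows up to 3 reads, or 0.0487% of the 6166. With both windows the stretch without reads in the 350 kb deletion ran from 47895001 to 48235000, which is 340 kb. Whether the sequence of both windows is itself deleted was not tested. The windows beyond it were read again, with 1316 reads at 47890001 to 47895000 and 3261 at 48235001 to 48240000.

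In wild type the deleted interval was a shoulder below the stretch between it and the bait. RPM per window averaged 2216 in the 100 kb between the interval and the bait, 774 in the nearer part of the interval, 601 in its farther part and 535 in the 100 kb upstream of it. The step at the bait end of the interval was thus larger than the slope across it. In the 350 kb deletion these outer stretches, now next to each other, averaged 1911 and 800. The drop from one to the other was smaller than in wild type. Both averages of the 350 kb deletion include its end window without reads, which lowers them.

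**Figure D1:**
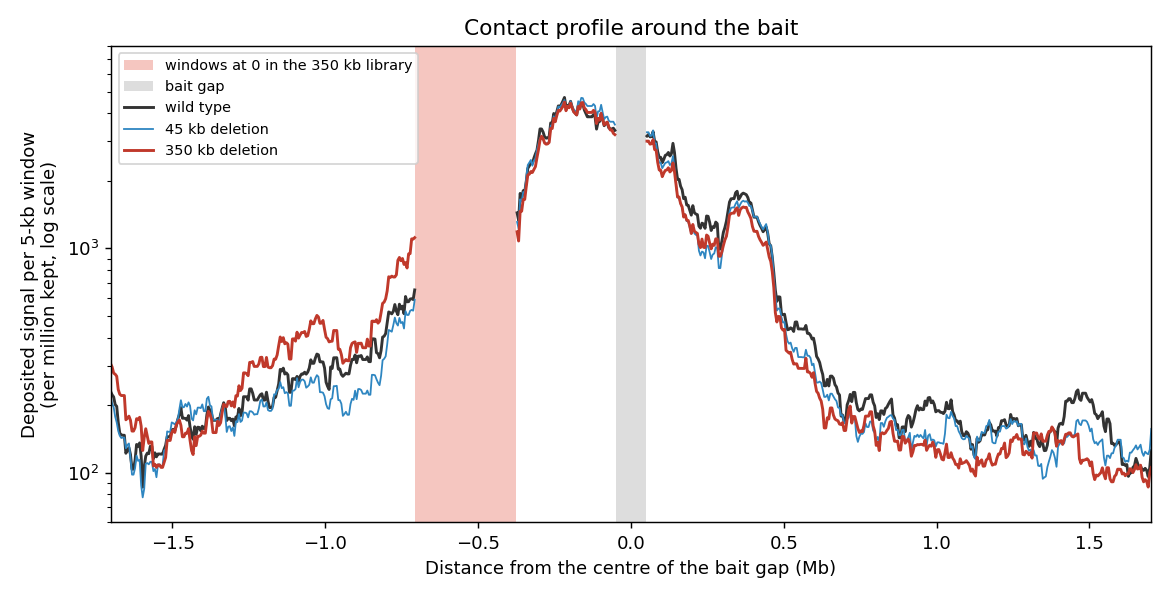
Deposited signal per 5-kb window, as scaled signal on a log scale, against distance from the centre of the bait gap, for wild type, the 350 kb and the 45 kb deletion (1 library each). The 350 kb line lies above the others in the 0.5 Mb upstream of the deletion and below wild type in the 0.5 Mb downstream of the gap. Farther upstream it dips below wild type over 4 bins, 47.05 to 47.25 Mb, with log2 ratios from -0.17 to -0.10.

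Contacts were higher in the 350 kb deletion in the flank just beyond the lost boundary. The 0.5 Mb upstream of the deletion, 47400001 to 47900000, held 3.42% of the deposited signal in wild type and 4.86% in the 350 kb deletion, a 1.42-fold difference (log2 0.51). In own reads it held 57068 reads, or 3.48%, against 70693, or 4.82%, a log2 ratio of 0.47 with a counting interval of 0.45 to 0.49. The 45 kb deletion held 49059 reads, or 2.88%, a log2 ratio of -0.27. The 350 kb library was therefore the highest of the 3 in this flank and the 45 kb library the lowest.

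The higher level was spread over the flank. All 10 bins of 50 kb were above wild type in deposited signal, against 56.9% of the 996 bins of the chromosome at or above the median signal. 5 of the 10 were above a log2 ratio of 0.5, against 26.3% of those bins. The scaled signal of the bin next to the deletion, 47.85 to 47.90 Mb, was 5799 in wild type and 9520 in the 350 kb deletion (log2 0.72). In own reads 9 of the 10 bins were above wild type, against 53.8% of all bins, with a median log2 ratio of 0.47. The exception lay at 47.65 to 47.70 Mb, with 3993 reads in wild type and 2234 in the 350 kb deletion (log2 -0.68). That bin was lower still in the 45 kb deletion, at -1.02. In the 45 kb deletion 0 of the 10 bins were above wild type in deposited signal, against 60.5% of all bins at or above the median for that pair, and 3 of 10 were in own reads, against 56.3%. Neighbouring deposited values share reads through the running mean, which in the bins beside the deletion also skips the deleted windows and reaches windows on the bait side. Own reads are free of this.

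Single windows showed the same. Of the 66 windows of the flank with reads in either library, 52 were higher in RPM in the 350 kb deletion and 14 lower, and the median log2 ratio of the windows read in both was 0.53. Over all kept windows with reads in either library, 2518 were higher and 2667 lower upstream of the gap, and 2671 and 2845 downstream of it. For the windows read in both, the median log2 ratio was 0.29 upstream of the gap and 0.20 downstream of it, so it was above 0 on both sides. The window at 47880001 to 47885000 went from 2788 reads to 4771 (log2 ratio of RPM 0.94). The window at 47565001 to 47570000 went from 1761 to 3318 (log2 1.08), while the one at 47860001 to 47865000 had 2565 and 2299 reads, a log2 ratio of 0.0038. The windows with reads were nearly as many, 63 in wild type and 64 in the deletion. The difference lay in reads per window rather than in the number of windows reached.

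The deletion also brings this flank nearer to the bait along the chromosome. Set against the wild-type windows that lie at that shorter distance, the flank was lower. Over the 0.5 Mb, the RPM summed to 48231 in the 350 kb deletion, 34805 in wild type at the same position and 61902 in wild type at the same distance, a log2 ratio of -0.36 to the last. At the same distance 3 of 10 bins were higher in the deletion. These were the bin next to the deletion, with 11378 against 9057 RPM, the third bin, with 6346 against 5759, and the farthest, with 3782 against 3608. The flank of the 350 kb deletion thus lay between the wild-type level at its own position and that at its new distance. The wild-type windows used here include the deleted interval itself, so the sequences compared differ.

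**Figure D2:**
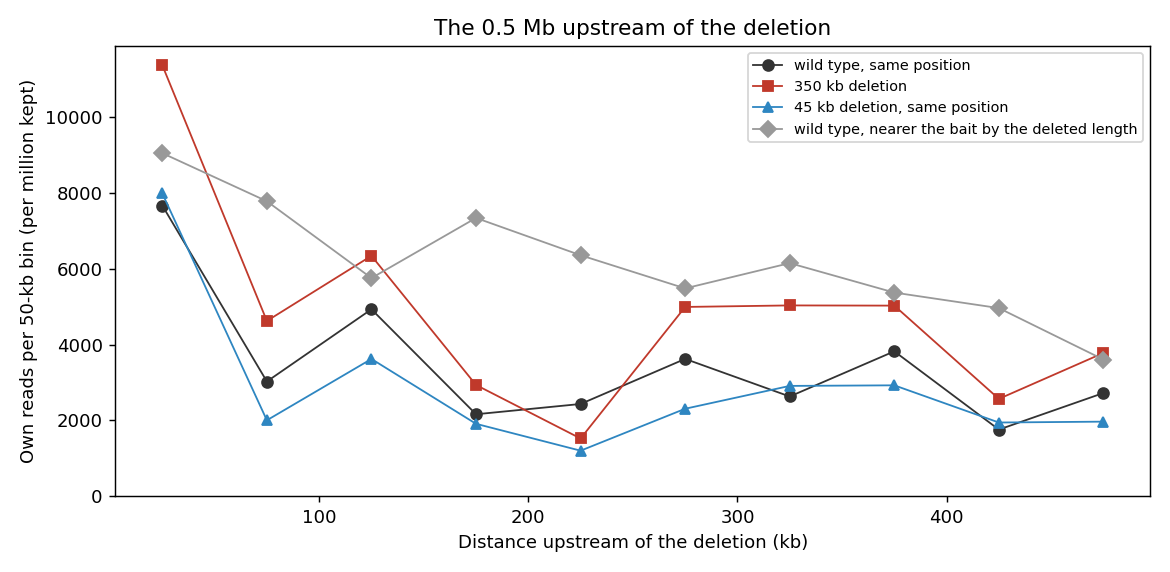
RPM per 50-kb bin against distance upstream of the deletion for the 350 kb deletion, the 45 kb deletion and wild type at the same position, and for wild type at the distance from the bait that the bin has on the deleted chromosome. Over the flank the 350 kb line sums to 48231, between 34805 for wild type at the same position and 61902 at the same distance.

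Farther upstream the difference narrowed and came back. From 0.5 to 1 Mb upstream of the deletion the log2 ratio of own reads was 0.21, from 1 to 2 Mb -0.099 and from 2 to 5 Mb 0.21. From 5 to 10 Mb upstream, 3.14% of wild-type reads and 4.55% of those of the 350 kb deletion were found, a log2 ratio of 0.54 (counting interval 0.52 to 0.55). This was as large as the ratio of 0.56 at 0.25 to 0.5 Mb upstream of the deletion. This class held 89 bins that passed the filter on signal, and 46 of them were above 0.5 and 4 below -0.5 in deposited signal, where all bins gave 26.3% and 13.6%. In the 45 kb deletion the class was at 0.17, with 22 and 9 of the same 89 bins past these values. Of all 996 bins that passed the same filter, 176 and 135 were past them in the 45 kb deletion.

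Between the deletion and the bait gap, contacts of the bait were nearly equal in sum. The 325 kb from the deletion to the bait gap, 48230001 to 48555000, held 22.4% of own reads in wild type and 21.9% in the 350 kb deletion (log2 -0.034, counting interval -0.041 to -0.028). In the 45 kb deletion it held 22.8%. Reads fell in 48 of the 65 windows in each of the 3 libraries. No bin of the 8 was past 0.5 in either direction in deposited signal. The ratios per bin ran from -0.25 beside the deletion to 0.06 at 48.45 to 48.50 Mb, and in own reads from -0.85 to 0.26 in the same bins. The strongest windows of this stretch had log2 ratios of RPM from -0.18 to 0.23. The window at 48410001 to 48415000 held 14056 RPM in wild type and 13733 in the deletion, and the one at 48510001 to 48515000 held 11572 and 13610. The one at 48310001 to 48315000 held 12660 and 11581.

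The bait-side end of the deletion stood apart within this stretch. Its first 50 kb, 48230001 to 48280000, had a log2 ratio of -0.61 in own reads and -0.16 in deposited signal. Without the first window, which had no reads in the 350 kb deletion, the ratio was -0.24, and 5 of the 6 windows read in either library were lower. Over the whole stretch from deletion to gap, the ratio without that window was -0.0072. The 45 kb deletion, which ends at the same place, was at -0.38 over the first 50 kb and -0.050 without the first window.

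In the megabases next to the bait downstream, on the side with no deletion, contacts were lower in the 350 kb deletion. The 0.5 Mb from 48655001 to 49155000 held 15.9% of own reads in wild type and 13.5% in the deletion (log2 -0.24, counting interval -0.25 to -0.23). The 2 Mb downstream held 21.0% and 17.5%, a log2 ratio of -0.27. The 45 kb deletion held 14.3% and 18.7% in the same stretches, log2 ratios of -0.15 and -0.17. From the gap to 49.20 Mb, 10 of 11 bins of the 45 kb deletion were below wild type in deposited signal and 9 of 11 in own reads, against 39.5% and 43.7% of all bins for that pair. Both deletions were thus below the wild-type library that they share, the 350 kb deletion by more.

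All 11 bins from the gap to 49.20 Mb, the last of which lies mostly past the 0.5 Mb, were below wild type in own reads, against 46.2% of all bins at or above the median, and their ratios ran from -0.49 to -0.18. To 49.70 Mb, 20 of 21 bins were below 0 in own reads, with ratios from -1.0 to 0.53, and all 21 were in deposited signal, against 43.1% of all bins for the latter. The exception in own reads was the last and thinly read bin, 49.65 to 49.70 Mb, nearly all of it past the first 1 Mb, with 840 reads in wild type and 1086 in the deletion. Of the windows within 1 Mb downstream read in either library, 102 were lower and 50 higher, against 2845 and 2671 on the whole downstream side. The ratio was lowest from 0.5 to 1 Mb downstream, where wild type held 2.26% of own reads and the deletion 1.64% (log2 -0.46). It was -0.27 from 1 to 2 Mb, -0.092 from 2 to 5 Mb and -0.12 from 5 to 10 Mb. Over 10 Mb downstream, the class with the most reads on that side, it was above 0, at 0.093, with 16.3% of own reads in wild type and 17.3% in the deletion, and the 45 kb deletion was at 0.18. The window at 48810001 to 48815000 had 14455 reads in wild type and 7822 in the deletion (log2 ratio of RPM -0.72), and the 45 kb deletion had a like value there, -0.65.

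**Figure D3:**
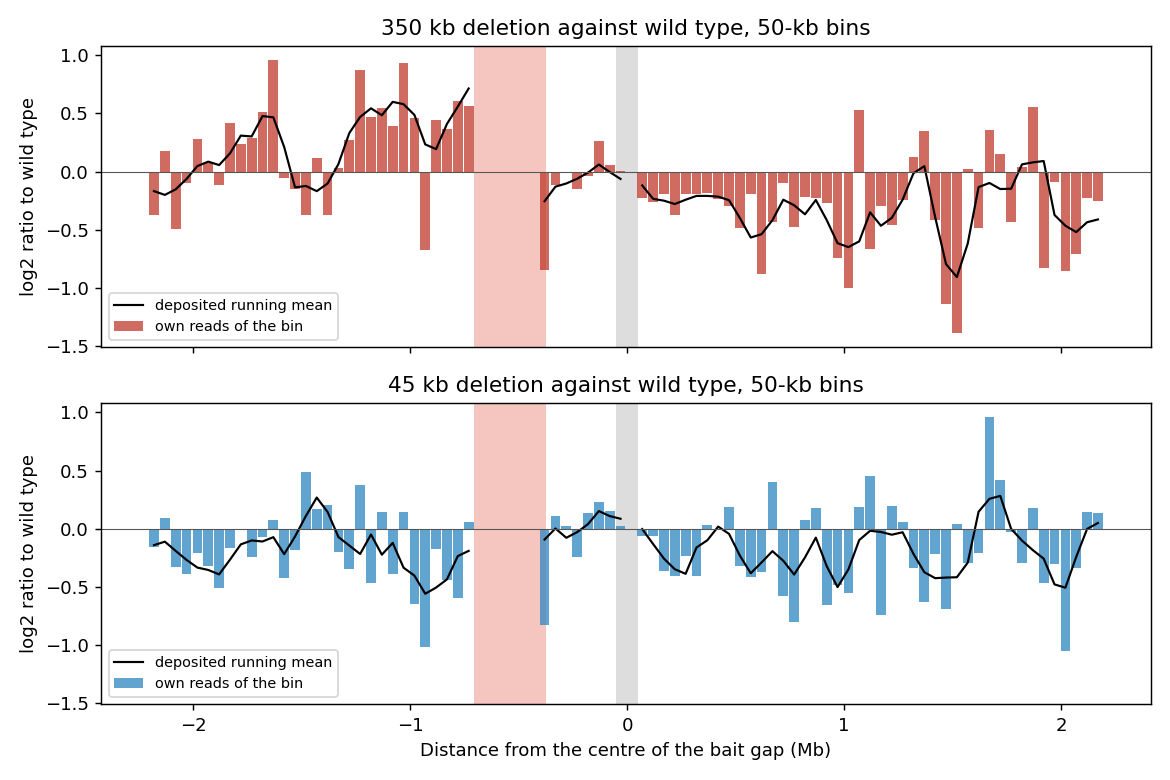
log2 ratio to wild type per 50-kb bin against distance from the centre of the bait gap, for the 350 kb deletion (top) and the 45 kb deletion (bottom); bars are own reads, the black line is the deposited running mean, and shading marks the windows at 0 in the 350 kb library and the bait gap. In the top panel 9 of 10 bars in the 0.5 Mb upstream of the deletion are above 0, and all 11 from the gap to 49.20 Mb are below 0; the bar at the bait end of the deletion holds 4 kept windows.

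The landmarks of the wild-type profile, its highest local maxima of 50 kb on each side, showed the same division near the bait. The maximum at 47.55 to 47.60 Mb, in the flank of the deletion, had a scaled signal of 3156 in wild type, 4718 in the 350 kb deletion and 2502 in the 45 kb deletion. Its own reads were 4317, 7383 and 4961, so in own reads the 45 kb deletion was above wild type there (log2 ratio of RPM 0.15). At 46.85 to 46.90 Mb the scaled signals were 2332, 2875 and 2174. The 3 maxima farther upstream were lower in the 350 kb deletion, with log2 ratios of -0.15 for the one at 46.50 to 46.55 Mb, -0.41 for 45.95 to 46.00 Mb and -0.25 for 45.70 to 45.75 Mb. Thus 2 of the 5 upstream maxima were higher and 3 lower, and the 2 were those nearest the deletion. Downstream, the main maximum at 48.95 to 49.00 Mb had 17016 in wild type and 14721 in the 350 kb deletion (log2 -0.21). The maximum at 50.05 to 50.10 Mb had 2199 and 1266 (log2 -0.80), and its own reads were 4987 and 2021. Of the 5 downstream maxima, 4 were lower in the 350 kb deletion, and the one at 50.40 to 50.45 Mb was at 0.062.

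By side of the bait, 56.8% of own reads lay upstream of the bait in wild type, 59.6% in the 350 kb deletion and 56.6% in the 45 kb deletion. The log2 ratio of upstream to downstream reads was 0.39, 0.56 and 0.38. By the median of windows in place of the sum, the difference between the 350 kb deletion and wild type turned, from 0.167 to -0.155 in deposited signal. The upstream gain of the 350 kb deletion came from beyond the deletion, where the share went from 34.3% to 37.7%, since the share between deletion and bait did not rise. Of wild-type reads, 42.7% fell within 1 Mb of the centre of the gap and 40.1% of those of the 350 kb deletion. The distance that holds 50% of reads was 1.99 Mb in wild type, 2.21 Mb in the 350 kb deletion and 2.27 Mb in the 45 kb deletion, but the distance that holds 75% was shorter in the 350 kb deletion, at 16.8, 16.3 and 18.6 Mb in the same order. Distances are on the undeleted chromosome.

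**Figure D4:**
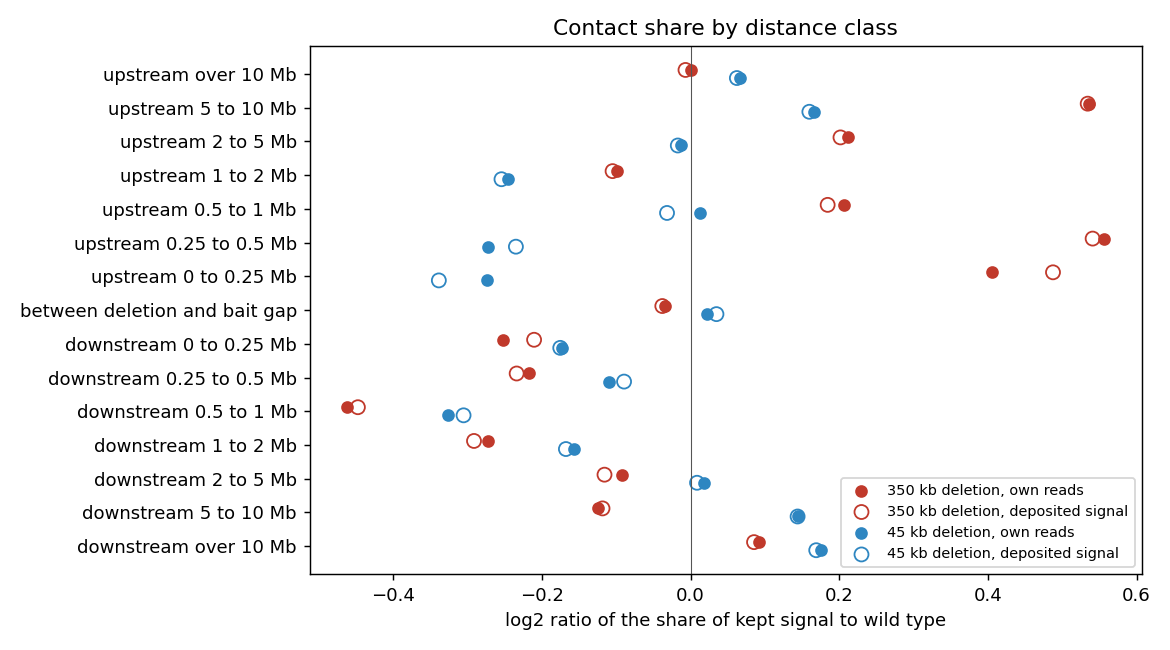
log2 ratio to wild type of the share of own reads (filled) and of deposited signal (open) by distance class for both deletions; classes are counted upstream from the far edge of the 350 kb deletion and downstream from the end of the bait gap. In own reads the 350 kb deletion reaches 0.56 in the class of 0.25 to 0.5 Mb upstream, 0.54 in that of 5 to 10 Mb upstream and, on the other side, -0.46 in that of 0.5 to 1 Mb.

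Across the whole chromosome the differences of the 350 kb deletion came in long stretches, as did those of the 45 kb deletion. In 1-Mb segments, all 15 from 30 to 45 Mb, a stretch that contains the class 5 to 10 Mb upstream, were higher in own reads, with log2 ratios of 0.22 to 0.92. Together they held 10.1% of wild-type reads, 14.3% in the 350 kb deletion (log2 0.50) and 11.5% in the 45 kb deletion (log2 0.19). In the 45 kb deletion 12 of the 15 were above 0, as were 56 of its 96 segments in all. All 13 segments from 7 to 20 Mb were lower, from -1.24 to -0.10, with 4.85% of reads in wild type, 3.47% in the 350 kb deletion and 4.41% in the 45 kb deletion. The class over 10 Mb upstream holds the lower stretch, part of the higher one and other segments that went both ways. It held 14.7% of reads in both wild type and the 350 kb deletion, a log2 ratio below 0.001 in size. Over all 96 segments, 49 were higher and 47 lower in the 350 kb deletion, and the SD of the log2 ratio was 0.42, against 0.30 in the 45 kb deletion. The longest stretch of the 45 kb deletion was 13 higher segments from 86 to 99 Mb (log2 0.30), where the 350 kb deletion was at 0.070. Its longest lower stretches were of 6 segments, from 11 to 17 Mb and from 45 to 51 Mb. All these stretches were picked because their segments lay on the same side of wild type. Their direction and pooled ratios follow from that choice and support no difference. Both deletions share the wild-type library, so a like direction in the other deletion is not independent.

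**Figure D5:**
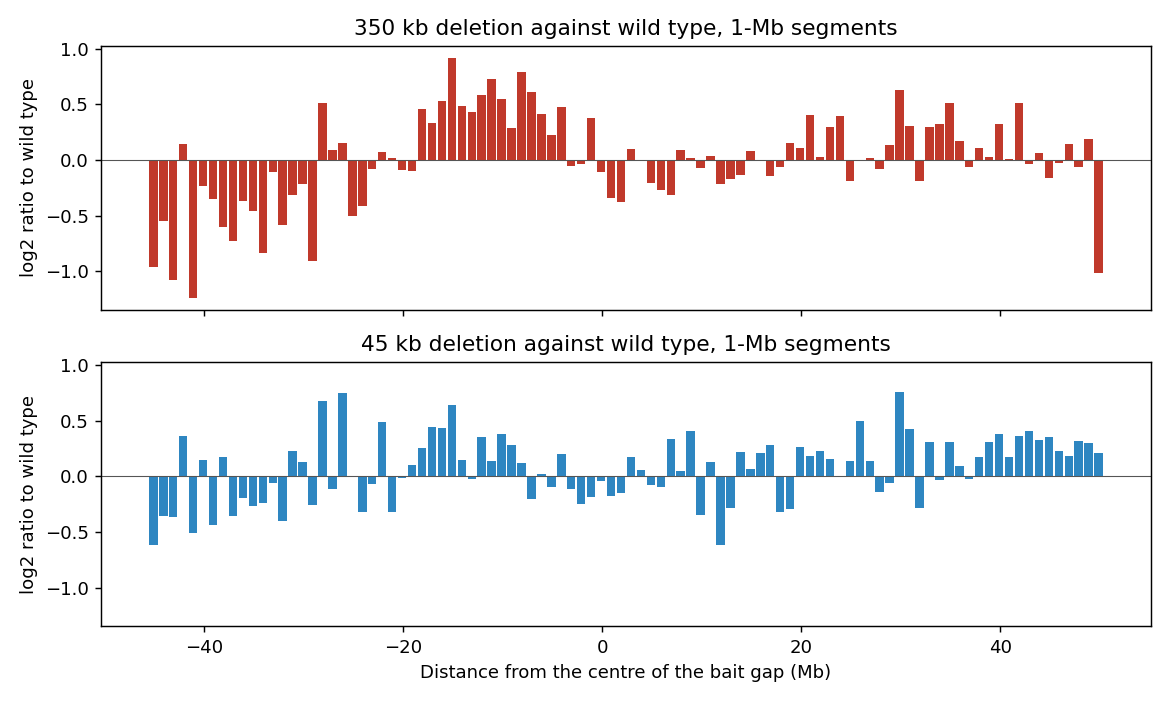
log2 ratio of own reads to wild type per 1-Mb segment of chromosome 16 against distance from the centre of the bait gap, for the 350 kb deletion (top) and the 45 kb deletion (bottom). The top panel shows 15 neighbouring segments above 0 upstream of the bait, and 13 neighbouring segments below 0 nearer the start of the chromosome.

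In 50-kb bins, 262 of 996 were above 0.5 in deposited signal and 135 were below -0.5 (13.6%). The split moved with the scaling, to 316 and 101 without rescaling and to 221 and 158 when scaled on windows over 2 Mb from the centre of the gap. In the 45 kb deletion, with the median set from its own pair, 229 and 96 bins were past these values, or 23.0% and 9.64%. In own reads the 350 kb deletion had 348 bins above 0.5 and 255 below -0.5, or 34.9% and 25.6%. The 45 kb deletion had 32.9% and 21.6%, so bins past 0.5 were common in both. Of the bins near the threshold, 66 lay between 0.4 and 0.5 and 64 between 0.5 and 0.6.

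The longest runs of neighbouring bins above 0.5 all lay in the higher stretch upstream. Runs were picked by these same ratios, after a filter that a bin can pass through the higher library alone. Their ratios are given as description and support no difference. A run of 10 bins from 33.55 to 34.05 Mb had 2492 own reads in wild type, 6243 in the 350 kb deletion (log2 1.49) and 5078 in the 45 kb deletion (log2 0.97). Another 10 bins, from 36.60 to 37.10 Mb, had 5569, 8950 and 7950. The 8 bins from 41.65 to 42.05 Mb had 4037, 7008 and 3910 reads. They were higher in the 350 kb deletion by a log2 of 0.96 and not in the 45 kb deletion, at -0.10. The runs at 37.55 to 37.95 Mb and 40.35 to 40.70 Mb were at 1.09 and 1.15 in the 350 kb deletion and at 0.37 and 0.57 in the 45 kb deletion. Runs below -0.5 were shorter, at most 4 bins. The one nearest the bait, from 50.80 to 51.00 Mb, had 4582 reads in wild type, 2468 in the 350 kb deletion (log2 -0.73) and 4421 in the 45 kb deletion (log2 -0.11). The other 4, at 18.80, 29.15, 56.45 and 98.00 Mb, had log2 ratios of own reads from -1.23 to -0.51. In the run at 29.15 Mb, 1 window held 40.2% of the reads of the 350 kb deletion.

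The 5 highest bins, at 33.70, 33.90, 33.95, 40.50 and 40.55 Mb, belonged to these runs, with log2 ratios of deposited signal from 1.69 to 1.81. At 40.50 to 40.55 Mb the own reads were few, 23 in wild type and 199 in the 350 kb deletion. The 5 lowest, at 5.05, 16.55, 17.55, 27.55 and 65.35 Mb, ran from -1.64 to -1.32. The filter was on the mean of both libraries, with a median bin at a scaled signal of 21.4 per window. Each of these highest and lowest bins passed it only through the library where it was higher. Their ratios are therefore given as description and support no difference. The lowest, at 5.05 to 5.10 Mb, had 994 reads in wild type, 145 in the 350 kb deletion and 217 in the 45 kb deletion, so both deletions were far below the wild-type library there.

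Windows with reads were shared between libraries near the bait and less so far from it. Within 1 Mb of the centre of the gap, 216 windows were read in both wild type and the 350 kb deletion, 95.2% of those read in wild type and 98.2% of those read in the deletion. From 5 to 10 Mb, 795 were shared, 76.4% and 82.8%. Beyond 10 Mb, 4369 were shared, 64.3% and 76.1%, with 76.1 reads per read window in wild type and 84.1 in the deletion. The 45 kb deletion gave like shares beyond 10 Mb, 67.3% of wild type and 77.4% of its own. Over 10 Mb upstream of the deletion, wild type had reads in 42.5% of windows, the 350 kb deletion in 33.9% and the 45 kb deletion in 35.8%. How this difference in coverage relates to the ratios of the far segments was not tested. At 5 to 10 Mb upstream coverage was nearly the same, 52.9% in wild type and 52.6% in the 350 kb deletion, beside the log2 ratio of 0.54 given above.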

How the data were processed

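The authors' deposited inbred table holds coverage signal in 5-kb windows without a chromosome column and was read as chromosome 16 of mm9. The mm9 build, the window and the running mean over 30 windows are per the file name. The submitters' processing notes name Bowtie2, mm9 and mm10, and nothing else on the authors' steps was found in the labels. HindIII and, after ligation, DpnII were the enzymes, per the labels' protocols. The protocol text also names other primers than those listed as bait sequence.

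Neighbouring deposited values differed by whole multiples of 1 step. Undoing the running mean, with each library's windows at 0 left out, gave whole reads for 100% of values within 0.01 and 0 windows below 0. With those windows kept, 4730 windows of the 350 kb library fell below 0. The method was tested on data simulated from the wild-type library with no windows left out. That test did not cover the step that skips the windows at 0.

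Deposited totals were 1983512 for wild type and 1986057 for the 350 kb deletion. Both were rescaled over the kept windows. Bins of 50 kb were counted past a log2 ratio of 0.5 where the mean signal was at or above the median bin. Named were all bins beside the deletion and gap by values or ranges, the 5 highest and 5 lowest bins, the 5 longest runs each way (as counts where alike) and 5 wild-type maxima a side, at least 0.25 Mb apart and from the gap. Regions, classes and rules were chosen with earlier results of these data known. The hybrid table was not used. Scripts ran in Python 3.11.15 with scipy 1.17.1 for intervals, pandas 2.3.3 and numpy 2.4.6 for tables and matplotlib 3.10.9 for figures.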

Additional observations from a re-analysis of the deposited data

Results flagged for a closer look

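The 350 kb and the 45 kb deletion lay on opposite sides of the wild-type library in several regions. Each is 1 library, both are set against the same wild type, and the difference was not tested. In the 0.5 Mb upstream of the deletion, the log2 ratio of deposited signal in the 350 kb deletion minus that in the 45 kb deletion was 0.806. By distance class upstream of the deletion it was 0.826 for the nearest 0.25 Mb and 0.776 for the next 0.25 Mb. It was 0.216 for the class from 0.5 to 1 Mb and 0.219 for that from 2 to 5 Mb. Over 10 Mb upstream it was -0.0691. Between the deletion and the bait gap it was -0.0728. Downstream it was -0.124 at 2 to 5 Mb and -0.262 at 5 to 10 Mb. In own reads the class at 0.5 to 1 Mb upstream was no longer opposite, with log2 ratios of 0.21 (350 kb) and 0.012 (45 kb). Nor was the class over 10 Mb upstream, at 0.00015 (350 kb, counting interval -0.0082 to 0.0085) and 0.067 (45 kb). At 2 to 5 Mb the counting interval of the 45 kb deletion in own reads spanned both signs on each side. It was -0.027 to 0.00043 upstream and -9.6e-05 to 0.037 downstream, so its side of wild type is not set there.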

How the results depend on the processing

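Values are log2 ratios unless called bins. In the 0.5 Mb upstream of the deletion (0.509) the ratio was 0.581 without rescaling, 0.451 scaled on windows over 2 Mb from the gap centre, 0.579 scaled on all deposited windows, 0.471 with the running mean undone, 0.445 without windows whose running mean reached the deletion or gap, 0.374 by the median of windows and 0.535 within 10 Mb of the gap centre. Against wild type at the same distance it was -0.434, and the 45 kb deletion was at -0.297. In the same order, downstream of the gap (-0.219) it was -0.147, -0.276, -0.149, -0.239, -0.248, -0.244 and -0.193, and -0.143 in the 45 kb deletion. Between deletion and gap (-0.038) the sign followed the setting: 0.0341 without rescaling, 0.0322 scaled on all windows and 0.00631 by the median, against -0.0955 scaled over 2 Mb away and -0.0118 within 10 Mb. The 45 kb deletion was at 0.0349. The upstream to downstream ratio, 0.167 above wild type, was 0.308 within 10 Mb, -0.155 by the median of windows and -0.00905 in the 45 kb deletion. The cause of the reversals by scaling and by the median was not tested.

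Settings chosen after seeing the data changed no direction. In own reads without the 2 windows at the ends of the deletion the flank was at 0.486 and the stretch to the gap at -0.014. Without the window with most reads the flank was at 0.477 and downstream at -0.231.

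The counts of 262 higher and 135 lower bins became 38 and 12 when only windows within 10 Mb were used and scaled, 538 and 264 in 25-kb bins, 130 and 63 in 100-kb bins, 450 and 429 without a filter, 146 and 36 with a filter at the highest 25% of signal and 70 and 27 with a threshold of 1. With the running mean undone 263 were lower. The median of windows gives no count of bins. No paired analysis was possible because each group has 1 library. Depth far from the bait limits single bins, and its part in the far segments was not tested.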
